A study of Mus musculus with 6 samples.

Results

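The ephrins are the membrane-bound ligands of the Eph receptor tyrosine kinases. All 8 mouse ephrin genes were taken by symbol from the 53465 genes in the table of estimated counts: the A class, Efna1 to Efna5, and the B class, Efnb1 to Efnb3. The 5 A-class and 3 B-class genes were all measured and all passed the filter on low counts, so each has a level and a test. In brief, the B-class transcripts Efnb2 and Efnb1 fell in the axitinib-resistant cells to 48.2% and 51.0% of their parental level, while the A-class transcripts Efna1 and Efna5 rose to 126% and 119%. Efna4 fell to 75.3%, the sparse Efna2 fell to 49.2%, a call that was lost without 1 AxR library, and Efna3 and Efnb3 did not pass the test.

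The samples were 6 libraries of poly(A)-selected RNA from 4T1 cells, a mouse mammary carcinoma line, with 3 libraries of the parental variant (P) and 3 of the axitinib-resistant variant (AxR). Axitinib is an inhibitor of vascular endothelial growth factor receptor kinases. AxR was established from a metastasis in a mouse that was given 100 mg/kg of axitinib per day while its primary tumor grew and after the tumor was removed, and the labels give it 0.5 μM axitinib for more than 2 months in culture; no drug is given under treatment for P. The growth description, however, names 0.5 μM axitinib for all 6 samples, so what medium P was kept in cannot be read from the labels. The authors' methods describe axitinib in culture for the resistant cells, and the authors call P vehicle-treated. The authors' methods name no engineered genetic change in either variant. AxR is 1 line, and its growth in an animal, its selection and its time in drug cannot be told apart. The labels do not say that the 3 libraries of a line came from separate cultures, so p-values measure the spread between these libraries, which may be technical.

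Ephrins signal between touching cells. A-class ephrins are held in the membrane by a glycosylphosphatidylinositol (GPI) anchor and mostly bind EphA receptors, while B-class ephrins cross the membrane, carry a cytoplasmic tail that ends in a PDZ-binding motif and mostly bind EphB receptors; EphA4 takes ligands of both classes. Binding clusters the receptor and starts kinase signaling in the receptor's cell (forward signaling) and, through the ephrin, in the ligand's cell (reverse signaling). In mammary epithelium the system is known for cell sorting, adhesion and repulsion, and ephrin-A1 is the best known ligand of EphA2 in breast carcinoma cells. RNA levels give neither the amount of protein at the surface nor which ligand meets which receptor.

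The libraries held 15495260 to 17294525 estimated counts each, and 3 counts in a library, taken as the floor of detection, stand for 0.171 to 0.196 CPM, the counts scaled to a common library size. The floor covers counting error only. AxR replicate 3 stood apart from the other AxR libraries on the second principal component of log2 CPM (24.4 against −14.2 and −9.90), and the change of each ligand was also computed without it. The epithelial label was checked with 9 markers, all above the filter. Their summed level was 2195 to 2423 CPM in P and 3249 to 3417 CPM in AxR. Among them 5 rose, Krt7 the most, to 195% of its P level, and 4 fell. Those that fell were Cldn7 (to 9.13%), Krt19 (40.1%), Cldn3 (51.9%) and Cldn4 (88.6%). Of 8 fibroblast markers, 3 (Col3a1, Lum and Thy1) were at 0 in every library and the sum was 22.5 to 24.1 CPM in P and 10.2 to 11.6 in AxR, nearly all of it Pdgfra. The endothelial sum was 0.486 to 0.808 CPM in P and 0.445 to 0.512 in AxR, with Kdr and Emcn at 0, and the leukocyte sum stayed at or below 0.365 CPM in every library, with 4 of 8 markers at 0. The lung epithelial sum was 0.577 to 1.15 CPM in P and 4.15 to 4.21 in AxR, mostly Foxj1. The part of these markers in the ephrin values was not tested, and in bulk RNA fewer cells of a type and less RNA per cell cannot be told apart.

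Promoter sequences are shown for the B-class genes that fell, Efnb2 and Efnb1, and for Efna5, the most abundant of the A-class ligands by CPM, to set genes that moved in opposite directions beside each other. Each is the 250 bases before the RefSeq start of the gene, read 5′ to 3′ on the gene's strand, build GRCm38.p6. Capitals mark matches, on either strand, to 4 short motifs. The GC box was searched as GGGCGG, the CCAAT box by the letters of its name and the TATA box as TATAAA. The core of an RBPJ site, which the DNA-binding factor of the Notch pathway recognises, was searched as TGGGAA. No marked matches overlap in these windows. The windows lie at chr8:8661243-8661492 (minus strand) for Efnb2, chrX:99135811-99136060 (plus strand) for Efnb1 and chr17:62881318-62881567 (minus strand) for Efna5.
Efnb2: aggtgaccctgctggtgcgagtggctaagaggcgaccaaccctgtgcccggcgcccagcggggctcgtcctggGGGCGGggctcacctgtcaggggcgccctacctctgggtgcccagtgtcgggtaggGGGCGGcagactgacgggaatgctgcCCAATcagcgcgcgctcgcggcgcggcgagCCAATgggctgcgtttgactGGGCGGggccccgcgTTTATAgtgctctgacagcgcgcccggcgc
Efnb1: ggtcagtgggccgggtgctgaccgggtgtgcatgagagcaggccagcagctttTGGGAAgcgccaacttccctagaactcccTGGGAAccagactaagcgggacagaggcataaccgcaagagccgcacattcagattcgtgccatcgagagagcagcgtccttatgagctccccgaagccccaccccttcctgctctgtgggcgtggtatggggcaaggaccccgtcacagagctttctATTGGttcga
Efna5: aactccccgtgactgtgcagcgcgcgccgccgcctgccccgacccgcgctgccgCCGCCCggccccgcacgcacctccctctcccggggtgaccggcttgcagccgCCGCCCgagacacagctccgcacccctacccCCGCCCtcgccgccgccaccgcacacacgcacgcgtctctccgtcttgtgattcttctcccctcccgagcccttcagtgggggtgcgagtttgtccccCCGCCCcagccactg
The Efnb2 window was 72.0% GC, with 27 CG pairs, 3 GC boxes, 2 CCAAT boxes and 1 TATA box. The TATA match is on the opposite strand, read here as TTTATA, and its last base lies 25 bases before the start. The Efnb1 window was 60.0% GC, with 13 CG pairs, 1 CCAAT box, 2 RBPJ cores and no GC box, and the Efna5 window was 74.8% GC, with 32 CG pairs and 4 GC boxes. Of all 32851 windows of this length, 32.7% held a GC box, 33.8% a CCAAT box, 12.4% a TATA box and 21.6% an RBPJ core; their median was 52.4% GC and 6 CG pairs. Efnb1 and Efnb2, whose changes were close, shared no motif of this list other than the CCAAT box. RefSeq starts were found in the same way for 7 of the 8 ligands. A match is a stretch of letters and does not show that a factor is bound.

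The question put to the data was which ligands differed in level between AxR and P cells. Levels are given as CPM on normalized library sizes, with the SD over 3 libraries. The test was edgeR's quasi-likelihood F test, with Benjamini-Hochberg adjustment across 13550 tested genes and a threshold of 0.05. A log2 fold change is AxR minus P, and each 95% interval is of a single gene, without adjustment. The SE was derived from the test, as the absolute log2 fold change divided by the square root of its F value. The interval is the log2 fold change plus or minus a t quantile times that SE. The exact two-sided permutation test of 3 libraries against 3 cannot go below p = 0.1, and p was 0.1 for 7 of the 8 ligands and 0.8 for Efnb3.

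Of the 8 ligands, 6 changed (75.0%), beside 63.5% of all genes tested. The shares by direction were 2 of 8 higher, beside 32.8% of all genes, and 4 of 8 lower, beside 30.8%. The P and AxR libraries did not overlap for 7 of 8, beside 68.3% of all genes. With changes this common across the transcriptome, the count of ligands called is not a result in itself, and the sizes, directions and levels below carry the description. In the A class 2 of 5 rose and 2 fell, with a median log2 fold change of −0.41. In the B class 0 of 3 rose and 2 fell, with a median of −0.97, while the median over all genes tested was 0.0058. DESeq2 and limma-voom also called 2 ligands higher and 4 lower.

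**Figure D1:**
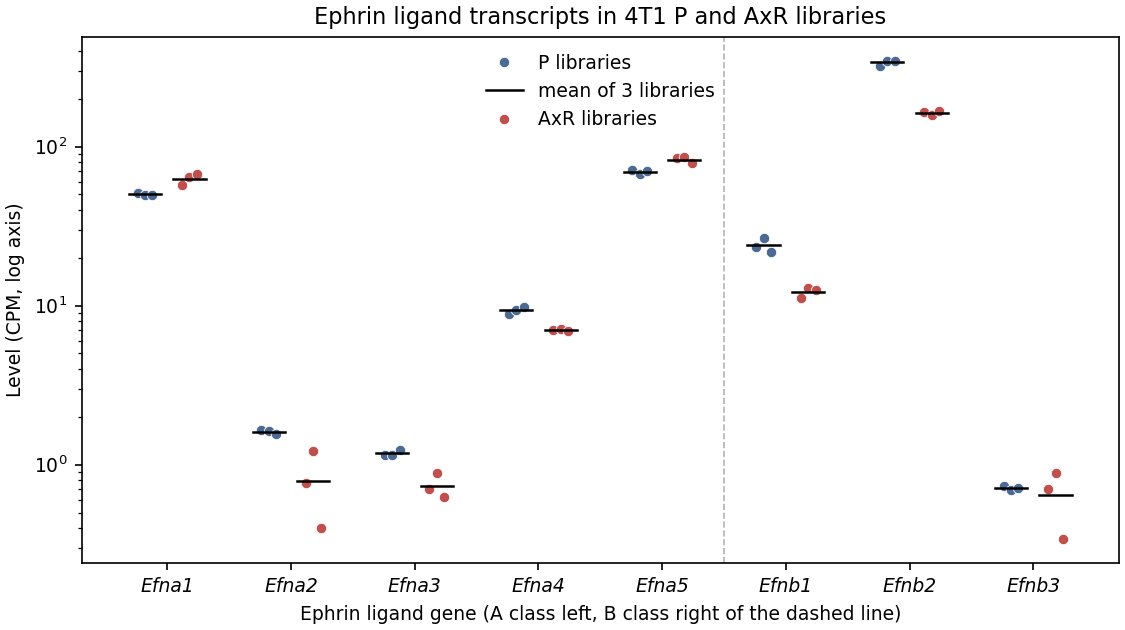
Level of each ephrin ligand transcript (y axis, CPM on a log axis) in the 3 P and 3 AxR libraries, with A-class genes left and B-class genes right of the dashed line. Points are libraries and black bars are means of 3. Efnb2 sits at 322 to 347 CPM in P and 158 to 167 in AxR, while Efnb3 overlaps between the lines.

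Efnb2 (ENSMUSG00000001300.16, chr8:8617434-8661242, minus strand, GRCm38) encodes ephrin-B2, a ligand of EphB4 and other receptors that is best known from arterial endothelium. It was the most abundant ephrin transcript of the P cells. Its level was 322, 345 and 347 CPM in P replicates 1 to 3 and 164, 158 and 167 CPM in AxR replicates 1 to 3. The highest AxR library lay below the lowest P library by a wide margin, and the libraries of each line were close to one another. The mean fell from 338 ± 13.9 to 163 ± 4.84 CPM (SD over 3 libraries), and its log2 fold change was −1.05 (SE 0.050, 95% interval −1.16 to −0.95) with an adjusted p of 1.25e-10 by edgeR's quasi-likelihood test. The endothelial markers summed to at most 0.808 CPM in any library.

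Efnb1 (ENSMUSG00000031217.8, chrX:99136130-99148991, plus strand) encodes ephrin-B1, a ligand of EphB2 and EphB3 known for boundaries between cell groups. It was detected at 23.5, 26.7 and 21.8 CPM in P and at 11.2, 12.9 and 12.5 CPM in AxR. The highest AxR library was well under the lowest of P. The mean fell from 24.0 ± 2.49 to 12.2 ± 0.878 CPM, a log2 fold change of −0.97 (SE 0.095, 95% interval −1.18 to −0.77, edgeR adjusted p = 3.94e-07). Efnb1 and Efnb2 thus changed by nearly the same factor: the ratio of their counts was 0.0730, 0.0774 and 0.0628 in P and 0.0687, 0.0821 and 0.0745 in AxR, overlapping sets (log2 difference 0.083, exact permutation p = 0.5). That p does not show that the ratio was equal in the 2 lines.

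Efnb3 (ENSMUSG00000003934.5, chr11:69554092-69560205, minus strand) encodes ephrin-B3, which is known for axon guidance at the midline. It was close to the floor, with 12, 12 and 11 counts in P and 11, 14 and 6 in AxR. The lines overlapped, and AxR replicates 2 and 3 were the highest and the lowest of the 6. The means were 0.713 ± 0.0186 and 0.644 ± 0.280 CPM, with a log2 fold change of −0.16 (95% interval −0.99 to 0.66, edgeR adjusted p = 0.732). At this depth the interval holds changes from near that of Efnb1 to a rise of 0.66, so a difference of either sign was not detectable. Without AxR replicate 3 the sign turned, to a log2 fold change of 0.16.

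Efna1 (ENSMUSG00000027954.9, chr3:89271733-89281142, minus strand) encodes ephrin-A1, a ligand of EphA2 that was first described as a gene induced by tumor necrosis factor. Its level was 50.8, 49.4 and 49.9 CPM in P and 57.2, 64.4 and 67.1 CPM in AxR. All AxR libraries were above all P libraries, and the AxR libraries were more spread than those of P. The mean rose from 50.0 ± 0.734 to 62.9 ± 5.10 CPM, a log2 fold change of 0.33 (SE 0.066, 95% interval 0.19 to 0.47, edgeR adjusted p = 0.000416).

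Efna5 (ENSMUSG00000048915.12, chr17:62604184-62881317, minus strand) encodes ephrin-A5, a ligand of many EphA receptors that also binds EphB2. It was measured at 71.6, 67.3 and 69.8 CPM in P and at 84.1, 85.8 and 78.6 CPM in AxR. The lines did not overlap, with AxR replicate 3 nearest to P. The mean rose from 69.6 ± 2.18 to 82.8 ± 3.78 CPM, a log2 fold change of 0.25 (SE 0.056, 95% interval 0.13 to 0.37, edgeR adjusted p = 0.00113). The ratio of Efna1 to Efna5 overlapped between the lines (log2 difference 0.076, exact permutation p = 0.6).

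Efna4 (ENSMUSG00000028040.7, chr3:89333390-89338028, minus strand) encodes ephrin-A4, another GPI-anchored EphA ligand. Its level was 8.87, 9.35 and 9.85 CPM in P and 7.05, 7.14 and 6.94 CPM in AxR, without overlap. The mean fell from 9.36 ± 0.486 to 7.04 ± 0.101 CPM, a log2 fold change of −0.41 (SE 0.111, 95% interval −0.65 to −0.17, edgeR adjusted p = 0.00468). Its counts were not whole in 5 of 6 libraries, which means that reads were divided between it and other genes, and the antisense gene 4731419I09Rik shares 168 bases of exon with it. That antisense gene was at 1.23 CPM in P and 1.63 in AxR. The counts of Efna4, 4731419I09Rik and the neighbouring minus-strand gene Adam15 together make a whole number in all 6 libraries. In P replicate 1 they were 145.7, 21.49 and 661.81. Reads were thus divided among these genes, which lie on both strands. The kit keeps strand, but the sources used here do not state whether the counting used it.

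Efna2 and Efna3 were sparse. Efna2 (ENSMUSG00000003070.6, chr10:80179482-80190010, plus strand), which encodes a ligand known from the nervous system, had 27, 28 and 24 counts in P and 12, 19 and 7 in AxR. Its libraries did not overlap, and the mean fell from 1.61 ± 0.039 to 0.791 ± 0.407 CPM (log2 fold change −1.04, SE 0.339, 95% interval −1.76 to −0.31, edgeR adjusted p = 0.0146). The call rested on AxR replicate 3, the lowest library: without it the log2 fold change was −0.70 and the edgeR adjusted p was 0.0713. Efna3 (ENSMUSG00000028039.11, chr3:89313899-89322965, minus strand), another A-class ligand, had 19, 20 and 19 counts in P and 11, 14 and 11 in AxR. Those counts did not overlap, at 1.18 ± 0.049 and 0.739 ± 0.138 CPM, but the difference did not pass the test over all genes (log2 fold change −0.68, 95% interval −1.32 to −0.03, edgeR adjusted p = 0.0623). When genes were required to have at least 10 counts in every library, fewer genes were tested. The SE for Efna3 was then 0.279, against 0.302, and the edgeR adjusted p was 0.0433. That was the only 1 of 13 alternatives in which Efna3 passed, and the highest adjusted p was 0.203, by DESeq2.

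**Figure D2:**
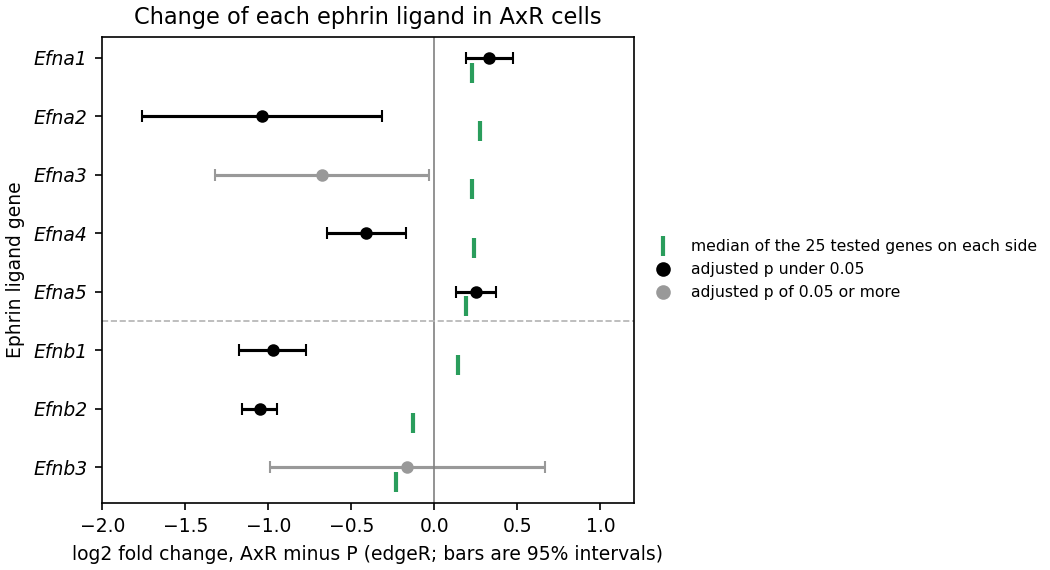
Log2 fold change of each ephrin ligand, AxR minus P (x axis), with 95% intervals derived from edgeR's F test. Black points passed an adjusted p of 0.05, grey points did not, and green ticks give the median change of the 50 genes nearest to each ligand, 25 to either side. Efnb1 and Efnb2 lie near −1 with narrow intervals, and Efna1 and Efna5 lie above 0.

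Because long transcripts give more counts, levels of different ligands were compared as CPM per kb of merged exon length. In P the order was Efnb2 (49.2 CPM per kb), Efna1 (27.3), Efna5 (17.3), Efnb1 (6.94), Efna4, Efna2, Efna3 and Efnb3, and the libraries of neighbours in this order did not overlap. In AxR Efna1 came first with 34.4 CPM per kb, followed by Efnb2 with 23.8 and Efna5 with 20.5. Efna4 then passed Efnb1, which was at 3.54 CPM per kb. The sparse ligands at the end kept their order, with Efna2 and Efna3, and Efna3 and Efnb3, overlapping in AxR.

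Efnb2 and Efna1 exchanged places in this order with both lengths used, though not in CPM, where Efnb2 was the higher of the pair in AxR too (163 against 62.9 CPM). With merged exons, Efna1 rose from 27.3 to 34.4 CPM per kb and Efnb2 fell from 49.2 to 23.8. Per kb of the longest transcript, Efnb2 remained the higher of both in P, at 70.4 against 30.6 CPM per kb, and Efna1 was the higher in AxR by a smaller margin, at 38.5 against 34.0. The ratio of their counts, which needs no length, was 0.158, 0.143 and 0.144 Efna1 counts per Efnb2 count in P and 0.349, 0.409 and 0.401 in AxR. The sets did not overlap, and the log2 ratio rose by 1.38 (exact permutation p = 0.1, the smallest possible, adjusted to 0.187 over the 28 pairs of ligands).

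Summed over the class, the A-class level was 51.7 ± 0.830 CPM per kb in P and 60.0 ± 2.47 in AxR. The B-class level was 56.4 ± 2.21 CPM per kb in P and 27.5 ± 0.553 in AxR. The total over all 8 was 108 ± 1.59 in P and 87.5 ± 2.55 in AxR. The 3 sums did not overlap between the lines: the A-class sum was higher in AxR, and the B-class and overall sums were lower.

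The A class made up 49.2%, 46.6% and 47.7% of the ligand level per kb in P and 67.6%, 69.6% and 68.4% in AxR. All AxR libraries lay above all P libraries, at 68.6 ± 0.984% against 47.8 ± 1.34%. Per kb of the longest transcript the share was 41.4% in P and 62.8% in AxR, and without dividing by length, 26.7% and 46.8%. The direction was thus the same on all 3 scales while the share itself depended on the scale. Efnb2 alone held 45.5% of the ligand level per kb in P and 27.2% in AxR, and Efna1 held 25.3% and 39.2%. Within the B class, Efnb2 took 87.3% in P and 86.4% in AxR, with overlapping libraries. Within the A class, Efna1 took 52.9% in P and 57.2% in AxR, without overlap.

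**Figure D3:**
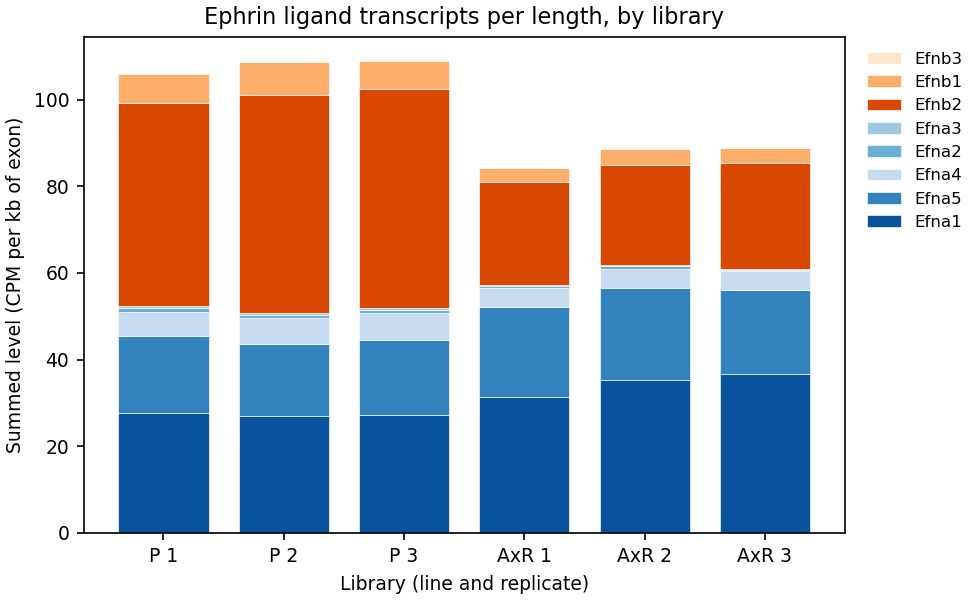
Ephrin ligand transcripts summed by library (y axis, CPM per kb of merged exon length), with A-class genes in blue and B-class genes in orange. The total is 108 ± 1.59 in P and 87.5 ± 2.55 in AxR, and the orange part is smaller in the 3 AxR libraries.

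Ratios between ligands of the same library were set out for all 28 pairs, a description chosen after the values were seen. The libraries of the lines did not overlap for 15 of the 28 pairs. Single genes did not overlap for 68.3% of all genes tested, and the pairs share members. No share over pairs of other genes was computed, so the count of pairs is not a result in itself. The mean log2 ratio of Efna5 to Efnb2 counts went from −2.28 in P to −0.98 in AxR, the same direction as that of Efna1 to Efnb2. Within the A class, Efna1 rose against Efna4, from 5.74, 5.29 and 5.08 counts of Efna1 per count of Efna4 in P to 8.14, 9.03 and 9.66 in AxR, a log2 difference of 0.73. These pairs have an exact permutation p of 0.1 each, the smallest possible with 3 libraries against 3.

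The genes were then set beside their chromosomal surroundings, since Efna1, Efna3 and Efna4 lie in a row on chromosome 3. Efna1 and Efna3 are 32756 bases apart and Efna3 and Efna4 10424 bases apart, all on the minus strand. Of these neighbours, Efna1 rose, Efna4 fell and Efna3 had a lower mean without passing the test. The median log2 fold change of the 50 tested genes nearest to each (25 on each side) was 0.22 for Efna1 and Efna3 and 0.24 for Efna4. The change of Efna1 minus that median was 0.11 and the change of Efna4 minus it was −0.65. Over the 717 tested genes of chromosome 3 the median was 0.32, close to the 0.33 of Efna1. Slc50a1, a sugar transporter gene 1162 bases from Efna1, had a log2 fold change of −0.09 (edgeR adjusted p = 0.344), and Adam15, a metalloprotease gene 513 bases from Efna4, rose by 0.36 (edgeR adjusted p = 0.000139).

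The same reading was made for the ligands on other chromosomes. The 50 genes spanned unequal lengths, from chr10:79777272-80687176 for Efna2 to chrX:80533745-103165407 for Efnb1. The change of Efnb2 minus the median of its surroundings (−0.13) was −0.92, and for Efnb1 (median 0.14) the difference was −1.12. The nearest protein-coding gene with counts beside Efnb2, Arglu1, a splicing and transcription cofactor gene 3832 bases away, rose by 0.18 (edgeR adjusted p = 0.0230). Pja1, a ubiquitin ligase gene and the nearest to Efnb1 on its right, 316742 bases away, had a log2 fold change of 0.013. Efna5 was 0.06 above the median of its surroundings and Fbxl17, 176134 bases to its right, rose by 0.54. For Efna2 the difference was −1.31: its nearer neighbour, 1600002K03Rik, 4335 bases away, had a log2 fold change of 0.11 (edgeR adjusted p = 0.541), and Mum1, 36423 bases away on the other side, rose by 0.56. Efnb3 was 0.06 above its own, beside Wrap53 at −0.30 (edgeR adjusted p = 0.0557). Over whole chromosomes, the median log2 fold change was −0.18 for that of Efnb2, 0.24 for Efnb1, 0.18 for Efna5, 0.25 for Efna2 and 0.0077 for Efnb3.

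The receptors these ligands bind were read from the same fit. Of 14 Eph receptor genes, 8 had enough counts to be tested. Epha3, Epha5, Epha6 and Epha7 had no count in any library, which allows at most 0.171 to 0.196 CPM per library, and Epha10 and Ephb1 had 3 counts or fewer. Of the 8, 3 rose and 4 fell, beside 32.8% of all genes tested higher and 30.8% lower. Epha2, the receptor of ephrin-A1 and the most abundant per kb, fell from 119 to 80.9 CPM per kb (log2 fold change −0.55), while Epha1 rose by 0.90. Among the others, Epha4, which binds both classes, changed by −1.18, Epha8 by −0.81 and Ephb2 by −0.51, while Ephb3 rose by 0.62 and Ephb6, whose kinase is inactive, by 1.12.

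Ephb4, the receptor that binds ephrin-B2 almost alone, was at 13.7 ± 0.621 CPM per kb in P and 14.6 ± 1.03 in AxR (log2 fold change 0.09, 95% interval −0.05 to 0.23, edgeR adjusted p = 0.227). Its libraries overlapped between the lines, while those of its ligand Efnb2 did not. The Efna1 and Epha2 pair went in opposite directions, with Efna1 higher and Epha2 lower in AxR. Levels of a ligand and its receptor in the same cells do not show whether they meet on 1 cell or between cells.

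Other genes of the pathway were taken from 4 lists of 57 genes in all, of which 55 were tested. Of these 17 rose and 25 fell, 76.4% in all, beside 63.5% of all genes tested. By direction, the shares over all genes tested, 32.8% higher and 30.8% lower, stand beside the count of every list that follows. The 21 forward signaling partners, which act below the receptors, had 5 higher and 12 lower, or 81.0% called, beside 63.5% of all genes, with a median log2 fold change of −0.20. Sipa1l1, which regulates Rap GTPases, rose by 0.47. Tiam1, an exchange factor for Rac, fell by 1.23. Kalrn, another exchange factor, had 103 counts over the P libraries and 5 over the AxR libraries, no more than 2 in any of them, so AxR held 4.86% of the P level (exact 95% interval 1.55% to 11.7%, counting error only).

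Reverse signaling partners act below the ephrins themselves. Of 13 tested, of 15 listed, 4 rose and 9 fell, beside 63.5% of all genes called in either direction, with a median log2 fold change of −0.40. Grip1 and Grip2, PDZ proteins that bind the B-class tail, were too sparse to test. Src, a kinase that phosphorylates the B-class tail, fell by 1.03, and the phosphatase gene Ptpn13, whose product binds the same tail, fell by 2.20. Cav1, a component of the caveolae in which A-class ephrins can sit, fell by 2.98, from 75.8 to 9.65 CPM. Fyn, a Src-family kinase of A-class reverse signaling, rose by 0.84, and Rgs3, which couples B-class ephrins to G proteins, by 0.60.

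Proteases shed or cut ephrins and Eph receptors. Of 11 genes 4 rose, 2 fell and 5 did not pass the test, 54.5% called beside 63.5% of all genes, with a median of 0.08. Mmp14, which cleaves EphA2, rose by 0.88, from 139 to 256 CPM, and Adam8 by 0.58. Psen2 and Ncstn, of the gamma-secretase that cuts B-class ephrins, fell by 0.90 and 0.30.

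The genes that make and trim the GPI anchor of the A class and the membrane rafts it sits in had 4 higher, 2 lower and 4 not passing of 10, or 60.0% called beside 63.5% of all genes, with a median of 0.04. Pgap3, which remodels the lipid of the anchor, rose by 0.99 from a low level, and Pigk, which attaches it, rose by 0.57. Pgap1, the deacylase of GPI inositol, fell by 1.24, from 48.7 to 20.7 CPM, and Flot2, a raft protein gene, fell by 0.25. The 4 lists differ in what their genes do, and none of them was tested as a set.

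**Figure D4:**
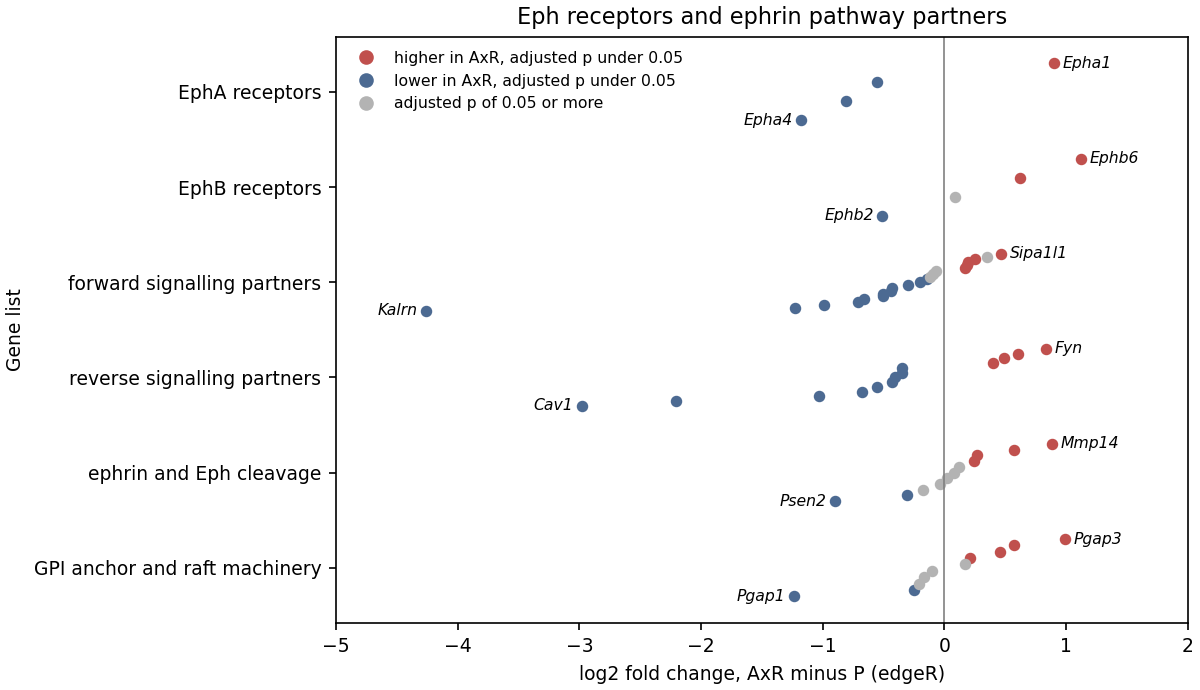
Log2 fold change, AxR minus P (x axis, edgeR), of the Eph receptors and ephrin pathway partners that passed the low-count filter, by list (y axis). Red points are higher in AxR and blue points lower at an adjusted p under 0.05, grey points did not pass, and the lowest and highest gene of each list is named. Kalrn has no more than 2 counts in any AxR library, so its point depends on the prior count.

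The genes most like Efnb2, the ligand with the highest level in CPM, were found by the root mean square distance between log2 CPM profiles centred over the 6 libraries. Tgfa, a ligand of the EGF receptor, was nearest at 0.0211, falling from 125 to 62.0 CPM (log2 fold change −1.02), followed by Arl6ip5 at 0.0290, Heatr1 at 0.0430, Wdr83 at 0.0440 and Sh2d5 at 0.0446. With 13550 genes compared and a profile set mostly by the difference between the lines, a small distance describes these 6 libraries and no more.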

How the data were processed

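RNA from 3 P and 3 AxR libraries was sequenced by the authors on a NextSeq500 from stranded, poly(A)-selected TruSeq libraries. Per the labels, the processing tools were FastQC 0.11.5, STAR 2.6.0a and RSEM 1.3.1 on GRCm38; the methods name GENCODE M16. The deposited values are RSEM estimated counts per gene, of which 10.3% to 10.7% in a library were not whole, since RSEM divides ambiguous reads by likelihood. They precede any filter or normalization.

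Estimated counts were rounded. Genes were filtered with filterByExpr (13550 kept, 99.9% of counts), normalized by upper quartile and tested with edgeR 4.0.16 (glmQLFit, robust) in R 4.3.3, with line as the only term. Symbols, lengths and positions came from GENCODE M21, in which 53360 of 53465 gene IDs matched. Promoter windows came from RefSeq. Permutation tests used log2(CPM + 0.5). The fit was also run on simulated counts in which few of the genes changed, unlike the share called here. That run therefore does not show how the fit performs on these data.

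Groups and replicate numbers came from the sample labels. Named genes were all ligands, the 2 highest and 2 lowest of each list, nearest coding genes, and the 5 profiles nearest to Efnb2, the ligand with the highest level and, by edgeR, the largest absolute log2 fold change (−1.05, with Efna2 at −1.04). Other list members could be named if they passed the test. A gene that this rule names is not reported here. Members and lists were chosen with earlier results of these data known. Alternatives were TMM, library size, DESeq2 1.42.0, limma-voom (limma 3.58.1), other count filters, a replicate block, each library left out, a log2 fold change of at least 1, and another length.

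Depth was 15495260 to 17294525 estimated counts per library. Replicates of a line differed by more than sampling noise (chi-square per degree of freedom 5.03 to 19.4). Same-numbered P and AxR libraries did not deviate together (correlations −0.021, −0.0061 and −0.022), so the numbers were not used as pairs.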

Additional observations from a re-analysis of the deposited data

How the results depend on the processing

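Efna1, Efna4, Efna5, Efnb1 and Efnb2 kept their direction and their call in 13 of 13 alternatives each, with log2 fold changes of 0.28 to 0.40, −0.44 to −0.37, 0.23 to 0.29, −1.03 to −0.89 and −1.08 to −1.03. Leaving out 1 library moved Efna2 between −1.47 and −0.70 (call lost without AxR replicate 3) and Efnb3 between −0.47 and 0.16, and the count of ligands lower between 3 and 4. With at least 10 counts in every library, Efna3 (−0.68, edgeR adjusted p = 0.0433) passed, while Efna2 and Efnb3 were not tested. Efna3 passed in no other of its 13 alternatives, where its adjusted p went up to 0.203 (DESeq2). Requiring a log2 fold change of at least 1 left, of the ligands, 0 risen and 2 fallen (Efna2 and Efnb2), of the receptors 1 and 1, and of the partners 0 and 6. For the counts of 0, edgeR, DESeq2 and limma-voom gave the same, and an unadjusted p under 0.05 with any fold held for 2 ligands and 17 partners. Per kb of the longest transcript, Efna1 was at 30.6 in P and 38.5 in AxR, Efnb2 at 70.4 and 34.0, and the A-class share at 41.4% and 62.8%. With the replicate block, 2 ligands were higher and 4 lower, Efnb2 had −1.05 (edgeR adjusted p = 2.44e-09), no ligand call changed, and the receptor counts were again 3 and 4; partners higher were 15 and lower 24. Where a value moved, the cause was not tested beyond fewer genes or samples. The median log2 fold change over all genes moved between −0.015 and 0.019. Depth limits Efna2, Efna3 and Efnb3, with 28 counts or fewer in a library.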

Other observations

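Within the bounds of Efnb2 the annotation places E230020D15Rik, Gm45074 and Gm45073, unconfirmed transcripts on the same strand that share no exon base with it. E230020D15Rik had 18, 39 and 26 counts in P and 19, 14 and 12 in AxR, at 1.68 ± 0.579 and 0.927 ± 0.264 CPM. Its log2 fold change was −0.87 (edgeR adjusted p = 0.0314). Gm45074 had 3 to 6 counts in every library, and Gm45073 had 6, 10 and 7 counts in P and 3, 5 and 6 in AxR. Gm15998, an antisense gene that shares 344 bases of exon with Efna3, had 2, 3 and 1 counts in P and 6, 7 and 9 in AxR, too few to test.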
